A study of Sus scrofa with 6 samples.

Results

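The DNAJ family comprises the J proteins, co-chaperones named after bacterial DnaJ. Its members were taken as every gene of the count files whose pig symbol was DNAJA, DNAJB or DNAJC followed by a number, and 38 of the 25880 genes listed met this rule. They comprised 4 genes of class A, 10 of class B and 24 of class C. A further gene, DNAJC30, carries an identifier that the count files do not list, and 11023 identifiers had no symbol and could not be searched, so members among them were not analysed here. The libraries were made from MII oocytes of the pig (Sus scrofa), eggs that have reached the second meiotic metaphase. There were 3 libraries of oocytes matured in medium with malathion, an organophosphate insecticide, at a final 1 mM (diluted from a stock of 0.75 M made up in DMSO), and 3 libraries of oocytes labelled control. The labels do not say whether the control medium held DMSO, and none of these 6 libraries is labelled as treated with melatonin, which the title of the series names. All oocytes came from cumulus-oocyte complexes of slaughterhouse ovaries, so each library can hold oocytes of several animals. Neither the number of oocytes per library nor whether the replicates were separate cultures is given, so a p-value here reflects only how far these samples lie apart, and that spread may be technical.

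J proteins share a J domain, which binds HSP70 chaperones and stimulates their ATPase, so that HSP70 closes on a client protein. Class A proteins resemble bacterial DnaJ most closely, with a zinc-binding region after the J domain. Class B proteins lack that region, and class C proteins share little with DnaJ beyond the J domain, which they carry into many places such as the spliceosome, the ribosome, the endoplasmic reticulum and mitochondria. A growing oocyte stores mRNA for use after transcription falls silent, so the mRNA of an MII oocyte is mainly maternal stock. The roles named here are those known from human, mouse and yeast proteins.

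Total gene counts lay between 25816040 and 42312341 per library, and levels are given as CPM, the counts of a gene scaled to this total. The 6 libraries were not alike. Genes with at least 1 count numbered 12211, 13589 and 8492 in malathion replicates 1, 2 and 3, and 14099, 14707 and 8344 in control replicates 1, 2 and 3. Each of the 11 oocyte markers found in the files reached 1 CPM in every library. Their sum was 84499, 61358 and 4424 CPM in malathion replicates 1, 2 and 3, against 77734, 31081 and 4670 CPM in the control replicates. BTG4 alone gave 44538 CPM in malathion replicate 1. Not every marker was low in the replicate 3 libraries. ZP2 and MOS were highest in malathion replicate 3 (2158 and 1458 CPM), and OOEP in control replicate 3 (382 CPM). The other oocyte markers were lowest in both replicate 3 libraries. The 12 cumulus and granulosa markers summed to 66.1 to 727 CPM in the malathion and 36.1 to 653 CPM in the control libraries, mostly VCAN and KITLG. CYP11A1 reached 18.2, 81.6 and 0.0236 CPM in malathion replicates 1, 2 and 3, against 22.1, 0.590 and 0.713 CPM in the control replicates, while AMH stood at 0 and PTX3 at no more than 0.252 CPM in each library. Markers of theca and stroma, blood and endothelium summed to at most 2.69, 2.88 and 12.2 CPM. These are bulk libraries, in which fewer cells of a type and less RNA per cell cannot be told apart. The part of these library differences in the values below was not tested. Counting error alone gave Wilson 95% intervals with a half-width of up to 59.5 CPM, at DNAJA2 in malathion replicate 3. For the least read members the half-width could exceed the value itself (0.106 CPM at a value of 0.0387 CPM for DNAJA4 in malathion replicate 1). Such an interval is not symmetric about the value.

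DNAJA1 or DNAJA2 had the most reads of the family in each library. DNAJA1 (ENSSSCG00000011000), a cytosolic HSP70 partner that also acts on nascent and misfolded proteins, stood at 9769, 8962 and 143 CPM in malathion replicates 1, 2 and 3, against 10347, 3691 and 69.9 CPM in control replicates 1, 2 and 3. In CPM it was high in replicates 1 and 2 of both groups and low in both replicate 3 libraries, so the groups overlapped. DNAJA2 (ENSSSCG00000002846), its close relative in the cytosol, stood at 593, 675 and 40614 CPM in malathion replicates 1, 2 and 3, against 513, 1955 and 26254 CPM in the control replicates. It was highest in both replicate 3 libraries, and here too the groups overlapped. Among all genes of a library, DNAJA1 held rank 7 and 6 in malathion replicates 1 and 2 and rank 8 and 21 in control replicates 1 and 2, and DNAJA2 held rank 1 in malathion replicate 3 and rank 6 in control replicate 3.

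**Figure D1:**
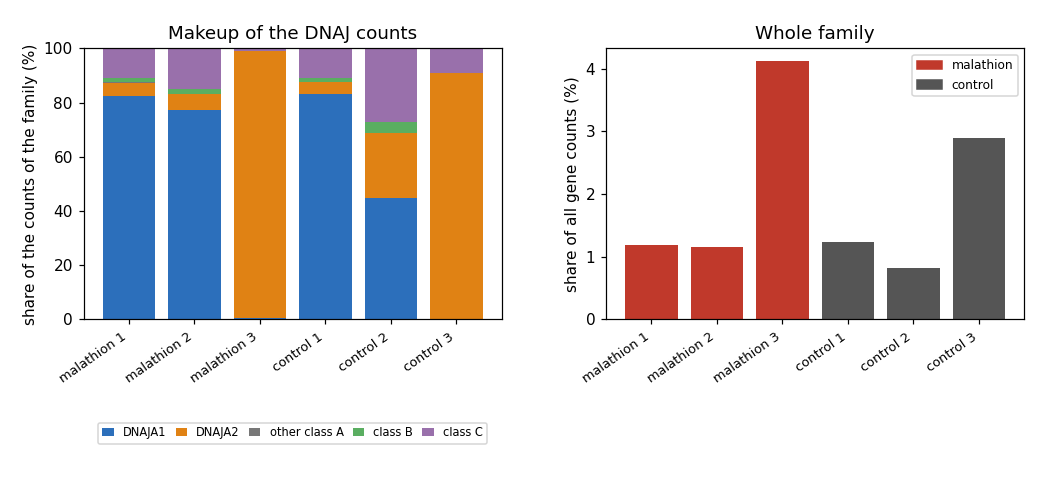
Left, the share of the counts of the DNAJ family (%) taken by DNAJA1, DNAJA2, the other class A genes, class B and class C in each library; right, the share of all gene counts (%) taken by the family, with malathion in red and control in grey. DNAJA1 holds 77.3% to 83.3% of the family in malathion replicates 1 and 2 and control replicate 1, and DNAJA2 holds 98.7% and 90.7% in malathion replicate 3 and control replicate 3.

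DNAJA1 and DNAJA2 changed places between libraries. DNAJA1 took 82.4%, 77.3% and 0.348% of the family's counts in malathion replicates 1, 2 and 3, against 83.3%, 44.9% and 0.242% in control replicates 1, 2 and 3. DNAJA2 took 4.998%, 5.83% and 98.7% in the malathion replicates, against 4.13%, 23.8% and 90.7% in the control replicates. A ratio of the reads of both genes within a library can be set against that of another library without a transcript length. DNAJA1 had 16.5 and 13.3 times the reads of DNAJA2 in malathion replicates 1 and 2, and 20.2 and 1.89 times in control replicates 1 and 2. DNAJA2 had 283 and 375 times the reads of DNAJA1 in malathion replicate 3 and control replicate 3. Both replicate 3 libraries lay apart from the other 4 in this ratio, and control replicate 2 lay below malathion replicate 2.

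The whole family held 1.19%, 1.16% and 4.12% of the gene counts in malathion replicates 1, 2 and 3, against 1.24%, 0.823% and 2.89% in control replicates 1, 2 and 3. The groups overlapped, at 21536 ± 16996 CPM in malathion and 16526 ± 10951 CPM in control libraries (SD, n = 3 each). The SD was larger than the difference of the means. Without DNAJA1 and DNAJA2, the other 36 genes summed to 1496, 1952 and 403 CPM in malathion replicates 1, 2 and 3, against 1556, 2579 and 2614 CPM in the control replicates. Leaving out the spliceosome gene DNAJC8 as well, the sums were 1105, 1438 and 396 CPM in the malathion replicates and 1160, 1794 and 75.4 CPM in the control replicates.

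Class A led by reads in each library. It held 10365, 9645 and 40757 CPM in malathion replicates 1, 2 and 3 and 10868, 5656 and 26324 CPM in control replicates 1, 2 and 3. Class C, with 6 times as many genes, held 1303, 1731 and 396 CPM in the malathion replicates and 1357, 2219 and 2604 CPM in the control replicates. Class B held 189, 214 and 7.49 CPM in the malathion replicates and 190.1, 350.4 and 10.5 CPM in the control replicates. As a share of the family, class B ranged from 0.0182% in malathion replicate 3 to 4.26% in control replicate 2. CPM count reads, and a longer transcript gives more of them. No transcript lengths were used here, so these sums and the order of members that follows rank reads and not numbers of mRNA molecules.

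Class A held both the most and nearly the least read genes. DNAJA3, the mitochondrial class A protein known as Tid1, stood at 3.95, 7.17 and 0 CPM in malathion replicates 1, 2 and 3, against 8.10, 8.60 and 0 CPM in control replicates 1, 2 and 3. DNAJA4 stayed between 0 and 0.612 CPM in the malathion and between 0 and 1.40 CPM in the control libraries. A count of 0 allows up to 0.0709 CPM in malathion replicate 3 and 0.102 CPM in control replicate 3 (3 counts), counting error alone.

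**Figure D2:**
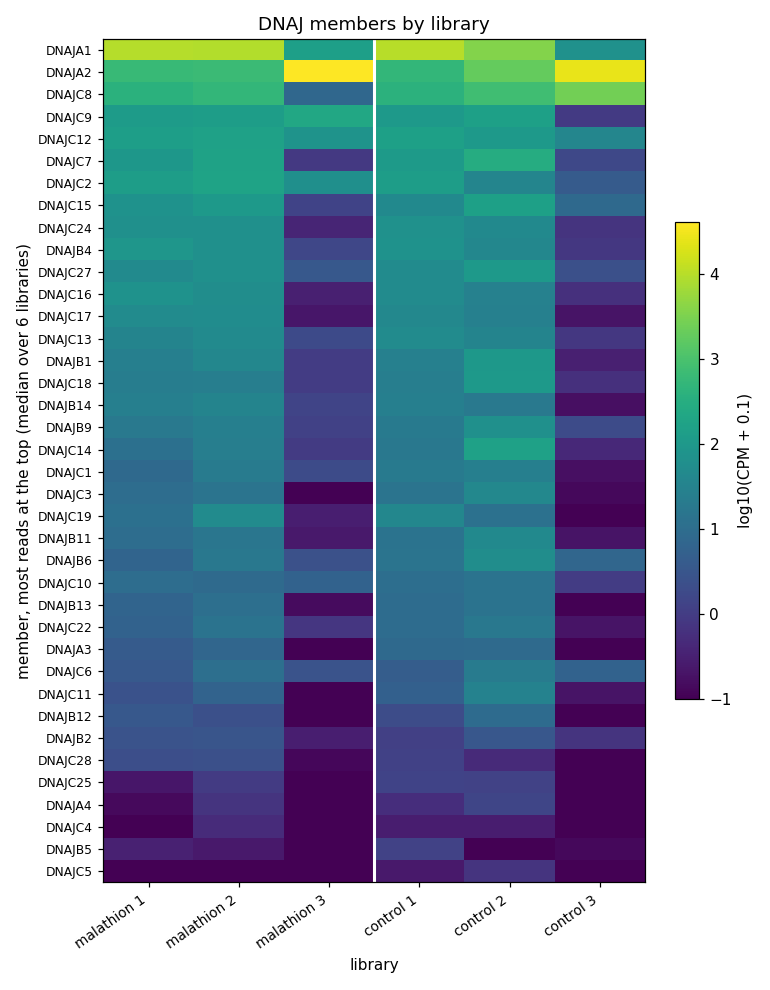
Level of each of the 38 DNAJ genes (rows, ordered by median CPM) in each library (columns, malathion left of the white line and control right of it), as log10(CPM + 0.1). The columns of both replicate 3 libraries are dark for most genes, with DNAJA2 bright at 40614 and 26254 CPM.

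By median over the 6 libraries, DNAJA1 (6327 CPM) and DNAJA2 (1315 CPM) came first, then the class C genes DNAJC8 (455 CPM), DNAJC9 (128 CPM), DNAJC12 (124 CPM), DNAJC7 (104 CPM) and DNAJC2 (95.4 CPM). The ranges over libraries of these 7 genes overlapped between neighbours, so their order does not hold library by library. DNAJC15 (58.6 CPM), DNAJC24 (55.4 CPM) and DNAJB4 (52.7 CPM) completed the first 10. The lowest medians were those of DNAJA4 (0.235 CPM), DNAJC4 (0.0900 CPM), DNAJB5 (0.0890 CPM) and DNAJC5 (0 CPM). DNAJC5, the cysteine string protein of secretory vesicles, had 4 counts in control replicate 1 and 16 in control replicate 2, and 0 in the other libraries.

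The order of the members was nearly the same in 3 libraries. Across the 38 genes, Spearman's rho of CPM was 0.979 between malathion replicates 1 and 2, and 0.983 and 0.984 between each of these and control replicate 1. It was 0.817 to 0.838 between control replicate 2 and these 3 libraries, 0.857 between malathion replicate 3 and control replicate 3, and 0.695 to 0.786 between a replicate 3 library and any of the other 4. The genes share each library's depth and RNA and are not independent replicates.

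At least 1 CPM was reached by 33, 33 and 16 of the 38 genes in malathion replicates 1, 2 and 3, and by 35, 34 and 11 in control replicates 1, 2 and 3. Over all 25880 genes, 35.6%, 37.0% and 14.4% did so in the malathion replicates, and 36.2%, 43.3% and 14.5% in the control replicates. In each of the replicate 3 libraries 29 genes of the family had any count, and 26 had a count in each of the 6 libraries. Both replicate 3 libraries lay below the other 4 libraries for 29 of the 35 members with enough counts to be tested, or 82.9%, a share close to the 83.8% of all tested genes. The 6 exceptions were DNAJA2, DNAJB6, DNAJC2, DNAJC6, DNAJC8 and DNAJC9. These counts depend on the scaling. With CPM scaled by the TMM factors of the fits below, both replicate 3 libraries lay below the other 4 for 16 members (45.7%). The share of all tested genes was 46.8% on that scale.

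The class C genes DNAJC8, DNAJC9 and DNAJC2 broke the pattern of low CPM in the replicate 3 libraries. DNAJC8 (ENSSSCG00000038907), a spliceosome protein, stood at 390.5, 514 and 7.30 CPM in malathion replicates 1, 2 and 3, against 396, 785 and 2539 CPM in control replicates 1, 2 and 3. It was lowest in malathion replicate 3 and highest in control replicate 3. DNAJC9 (ENSSSCG00000023482), a J protein that also chaperones histones, stood at 121, 134 and 230.2 CPM in the malathion replicates, against 105, 158 and 0.814 CPM in the control replicates. Here control replicate 3 was the low library and malathion replicate 3 the high one. DNAJC2 (ENSSSCG00000015423), which sits on the ribosome at the exit of the nascent chain, stood at 129.9, 178 and 60.9 CPM in the malathion replicates, against 130.1, 36.2 and 3.94 CPM in the control replicates. Its 2 lowest libraries were control replicates 2 and 3.

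DNAJC12 (ENSSSCG00000035600), a partner of aromatic amino acid hydroxylases, stood at 138, 161 and 77.0 CPM in malathion replicates 1, 2 and 3, against 152, 110.5 and 38.2 CPM in control replicates 1, 2 and 3. In CPM it was lowest in both replicate 3 libraries, and the groups overlapped. With the TMM factors of the fits it was highest there instead. It stood at 557 in malathion replicate 3 and 272 in control replicate 3, against 31.0 to 63.9 in the other libraries. DNAJC7 (ENSSSCG00000017419), which passes clients between HSP70 and HSP90, stood at 90.8, 171 and 0.756 CPM in the malathion replicates, against 117, 300.4 and 1.56 CPM in the control replicates. In CPM it too was lowest in both replicate 3 libraries, and highest in control replicate 2.

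Among class B genes, 7 of 10 were highest in CPM in control replicate 2, as were 54.7% of all tested genes. DNAJB1 (ENSSSCG00000013784), the stress-induced cytosolic HSP40, stood at 26.6, 38.4 and 0.898 CPM in malathion replicates 1, 2 and 3, against 27.9, 97.2 and 0.204 CPM in control replicates 1, 2 and 3. DNAJB4 (ENSSSCG00000003766), a close relative of DNAJB1, stood at 88.7, 65.7 and 1.47 CPM in the malathion replicates, against 73.6, 39.7 and 0.713 CPM in the control replicates. Unlike DNAJB1 it was lower in control replicate 2 than in control replicate 1. DNAJB6 (ENSSSCG00000033272), which holds back protein aggregation, stood at 6.28, 17.9 and 2.34 CPM in the malathion replicates, against 14.4, 57.2 and 6.89 CPM in the control replicates. Its value in control replicate 3 was above that in malathion replicate 1.

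Some J proteins of the endoplasmic reticulum, not all of those listed here, serve the HSP70 chaperone HSPA5 in folding and degradation. The list for this compartment holds 10 genes and leaves out DNAJC14. These 10 genes summed to 183, 204 and 11.3 CPM in malathion replicates 1, 2 and 3, against 184, 356 and 4.04 CPM in control replicates 1, 2 and 3. DNAJB9, which is induced when unfolded proteins build up, stood at 18.2, 25.8 and 1.11 CPM in the malathion replicates, against 20.4, 65.2 and 1.83 CPM in the control replicates. DNAJB11, which binds unfolded chains, stood at 9.99, 15.8 and 0.142 CPM in the malathion replicates, against 13.5, 46.7 and 0.102 CPM in the control replicates. Both were highest in control replicate 2. DNAJC3, also an inhibitor of the kinase PERK, stood at 9.76, 14.2 and 0 CPM in the malathion replicates, against 14.6, 41.3 and 0.0339 CPM in the control replicates. DNAJC10, a disulfide reductase, stood at 10.2, 8.79 and 5.79 CPM in the malathion replicates, against 10.5, 13.7 and 0.916 CPM in the control replicates, and DNAJB14, a membrane J protein, at 26.3, 34.1 and 1.30 CPM, against 26.6, 18.6 and 0.0679 CPM. DNAJC18 stood at 23.6, 25.2 and 0.874 CPM in the malathion replicates, against 25.2, 105 and 0.509 CPM in the control replicates.

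The 4 mitochondrial J protein genes found in the files summed to 90.0, 170 and 1.42 CPM in malathion replicates 1, 2 and 3, against 98.4, 207 and 8.45 CPM in control replicates 1, 2 and 3. DNAJC15 (ENSSSCG00000038251), a J protein of the inner membrane, had the most reads of the 4 in each library, at 72.0, 107 and 1.23 CPM in the malathion replicates, against 45.3, 157 and 8.35 CPM in the control replicates. DNAJC19 (ENSSSCG00000011770), a part of the motor that pulls proteins into the matrix, stood at 11.6, 49.9 and 0.189 CPM in the malathion replicates, against 39.9, 12.2 and 0 CPM in the control replicates. Its 2 high libraries were 1 of each group. The 4 genes listed here as vesicle genes, DNAJC5, DNAJC6, DNAJC13 and DNAJC27, summed to 87.1, 124 and 7.73 CPM in the malathion replicates and to 106, 159 and 8.75 CPM in the control replicates. The place of DNAJC27 on this list is uncertain. It stood at 49.2, 65.3 and 3.36 CPM in the malathion replicates, against 49.8, 104 and 2.21 CPM in the control replicates. The 4 nuclear and ribosome genes summed to 692, 879 and 299 CPM in the malathion replicates and to 673, 1006 and 2544 CPM in the control replicates. DNAJC8 held most of this sum in 5 libraries and DNAJC9 in malathion replicate 3.

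Control replicate 2 stood apart within the family as it did over all genes. Its CPM were the highest of the 6 libraries for 20 of the 35 tested members, or 57.1%, and for 54.7% of all tested genes. With the TMM factors it was highest for 11 members, or 31.4%, and for 30.2% of all tested genes. Against the median of malathion replicates 1 and 2 and control replicate 1, it was at least 2-fold higher (CPM + 1) for 14 of the 35 members, where 32.9% of all tested genes were, and at least 2-fold lower for 4, where 8.24% of all tested genes were. Those 14 members included DNAJA2, DNAJB1, DNAJB6, DNAJB9, DNAJB11, DNAJC3, DNAJC7, DNAJC15 and DNAJC18. The highest ratio, 9.03 in CPM, was that of DNAJC14 (ENSSSCG00000000366), a membrane J protein of the endoplasmic reticulum, with 11.6, 25.0 and 0.851 CPM in malathion replicates 1, 2 and 3, against 17.9, 162 and 0.339 CPM in control replicates 1, 2 and 3. The 4 lower members were DNAJA1, DNAJC2, DNAJC19 and DNAJC28. As shares of the members these counts were 40% and 11.4%, not far from those of all tested genes.

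The comparison of malathion with control asks whether the insecticide changed the stored mRNA of these co-chaperones. None of the 35 members tested changed at an adjusted p of 0.05 in edgeR's quasi-likelihood test, where 0% of the 10678 genes tested were called (smallest adjusted p 0.9998). DESeq2 (which gave 3 members no adjusted p) and limma-voom called 0 members too. Each gave 1 of the 35 members at an unadjusted p under 0.05, where 227 and 110 of the 10678 genes tested were found. In the edgeR fit 1 member had an unadjusted p under 0.05 and was higher, DNAJC9, where 0.918% of all genes were, and 0 members were lower, where 2.67% of all genes were. The edgeR fit blocked by replicate called 0 members and gave 2 an unadjusted p under 0.05. DNAJC2 had 2.32 ± 0.95 on the log2 scale there (unadjusted p = 0.0393, edgeR adjusted p 0.999). DNAJB6 had −1.30 ± 0.54 (unadjusted p = 0.0395, edgeR adjusted p 0.999). DNAJC9 was not among them (unadjusted p = 0.327, edgeR adjusted p 0.999). Of the 10678 genes tested, 120 had an unadjusted p under 0.05 in that fit, a smaller share than the 2 of 35 members. That difference in share was not tested. The CPM of the groups did not overlap for 0 members in either direction, where 0.243% of all tested genes were higher and 0.506% lower after malathion without overlap. DNAJB5, DNAJC4 and DNAJC5 had too few counts to be tested.

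**Figure D3:**
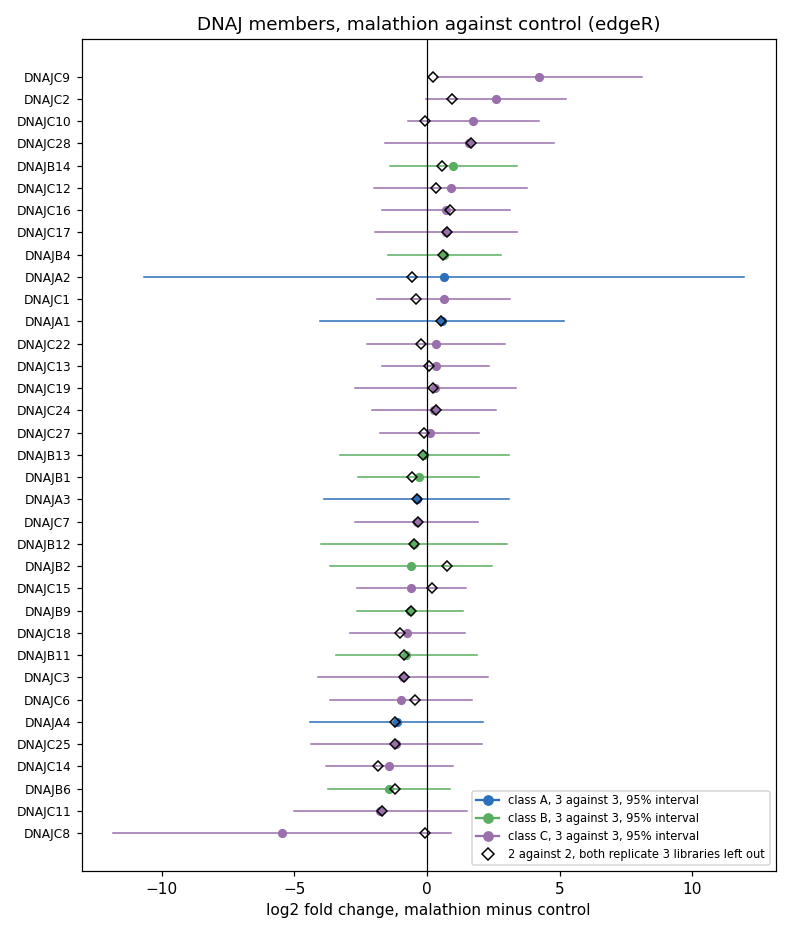
Log2 fold change (malathion minus control) of the 35 tested DNAJ genes, from highest to lowest, with filled points and bars for the fit of 3 against 3 libraries and its 95% interval, coloured by class, and open diamonds for 2 against 2 libraries without both replicate 3 libraries. The interval spans 0 for 34 of the 35 genes, and the diamonds of DNAJC9 and DNAJC8 lie at 0.24 and −0.074.

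Log2 fold changes, malathion minus control, were 17 above and 18 below 0, with a median of −0.11, against −0.077 for all tested genes. Class A had 2 above and 2 below (median 0.090, and −0.47 without both replicate 3 libraries), class B 2 above and 7 below (−0.50), and class C 13 above and 9 below (0.29). The excess of lower values in class B turned without control replicate 2 (6 above and 3 below) and in the fit blocked by replicate number (5 above and 4 below). Class C turned too, with 9 above and 13 below (median −0.086) without control replicate 3, 10 and 12 (−0.075) without both replicate 3 libraries, and 8 and 14 (−0.31) with library totals alone. The median of the family was 0.26 without control replicate 2, where that of all tested genes was 0.22. Fold changes rest on TMM factors of 0.138 and 0.141 in malathion replicate 3 and control replicate 3 and of 2.26 to 3.57 in the others, and cannot be read off the CPM given before. With library totals alone, 13 members lay above and 22 below 0 (median −0.40, and −0.33 for all tested genes). The 95% interval of a member had a median half-width of 2.66 on the log2 scale.

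The class A genes were not resolved. DNAJA1 had a log2 fold change of 0.57 ± 2.15 (SE), with a 95% interval of −4.02 to 5.17, and 0.51 ± 0.81 without both replicate 3 libraries. Leaving out 1 library at a time gave 0.12 without control replicate 3 and 1.94 without control replicate 1. DNAJA2 had 0.65 ± 5.28 and an interval of −10.65 to 11.95. Without control replicate 3 it stood at 8.01, without malathion replicate 3 at −7.89, and without both of them at −0.56 ± 0.59, so the library left out set its sign. DNAJA3 had −0.39 ± 1.63, and 0.27 without control replicate 1. DNAJA4 had −1.14 ± 1.53, and −3.73 without malathion replicate 2.

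The largest fold changes of the family came with 1 or both of the replicate 3 libraries. DNAJC9 had 4.23 ± 1.81 (unadjusted p = 0.0341, edgeR adjusted p 0.9998). It stood at 0.74 without malathion replicate 3, at 0.88 with library totals alone, at 1.78 with the replicate number as a block, and at 0.24 ± 0.41 without both replicate 3 libraries. DNAJC8 had −5.46 ± 2.97, and stood at −0.46 without control replicate 3, at −1.62 with the block, at −2.03 with library totals and at −0.074 ± 0.45 without both replicate 3 libraries. DNAJC2 had 2.61 ± 1.24, and 0.94 ± 0.78 without both. DNAJC10 had 1.75 ± 1.15, and its sign turned with library totals (−0.020), without malathion replicate 3 (−0.31) and without both replicate 3 libraries (−0.077 ± 0.52). None passed the test in any of these fits.

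Among the members with lower values, DNAJB6 had −1.43 ± 1.08 and kept its sign in every fit, from −2.29 without malathion replicate 3 to −0.33 without control replicate 3, with −1.21 ± 0.70 without both replicate 3 libraries. DNAJC14 had −1.42 ± 1.12, and its sign turned without control replicate 2 (0.46). The stress-induced DNAJB1 had −0.31 ± 1.07, and 0.71 without control replicate 2. DNAJB4 had 0.66 ± 0.99 and DNAJB14 0.99 ± 1.12, both with intervals across 0. DNAJB9, DNAJB11 and DNAJC3 of the endoplasmic reticulum had −0.63 ± 0.93, −0.77 ± 1.25 and −0.89 ± 1.50. Without control replicate 2 they stood at −0.32, 0.23 and −0.0091. DNAJC18 had −0.74 ± 1.01, and 0.29 without that library.

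The remaining named members had log2 fold changes of 0.89 ± 1.34 for DNAJC12, −0.39 ± 1.08 for DNAJC7, −0.59 ± 0.96 for DNAJC15 and 0.32 ± 1.42 for DNAJC19. DNAJC12 stood at 2.25 without control replicate 3 and at −0.98 without malathion replicate 3. DNAJC7 stood at 0.28 without control replicate 2, DNAJC15 at −0.16 without malathion replicate 3, and DNAJC19 at −1.04 without malathion replicate 2. The other tested members lay between −1.76 for DNAJC11, a protein of mitochondrial cristae, and 1.60 for DNAJC28. By location, 4 of 10 genes of the endoplasmic reticulum list were above 0 and 6 below (median −0.56), as were 1 and 3 of the mitochondrial genes (−0.49), 3 and 1 of the nuclear and ribosome genes (1.66), and 2 and 1 of the vesicle genes (0.10), all 3 of which lay below 0 with library totals alone. None was called, and the median of all tested genes was −0.077. Without control replicate 2 the endoplasmic reticulum list turned, with 7 above and 3 below (median 0.41). In that fit 62.7% of all tested genes lay above 0 too (median 0.22). The median of the mitochondrial genes was −0.092 without both replicate 3 libraries, −0.00092 without malathion replicate 3, −0.31 without control replicate 2, −0.33 without control replicate 1 and −1.07 without malathion replicate 2. That of the nuclear and ribosome genes was 0.49 without both replicate 3 libraries, 0.73 with library totals, 0.88 without malathion replicate 3 and 2.54 without control replicate 1. The vesicle genes had 1 above and 2 below without control replicate 3 (median −0.025).

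Leaving out both replicate 3 libraries gave no call. In that fit of 2 against 2 libraries, 0 of the 35 members passed at an adjusted p of 0.05, where 0% of 11637 genes did, and 0 members had an unadjusted p under 0.05, where 253 genes did. There were 14 members above and 21 below 0 (median −0.16, and −0.062 for all tested genes). The lowest were DNAJC14 (−1.85 ± 0.87) and DNAJC11 (−1.69 ± 0.81), both highest in control replicate 2. Leaving out that library as well left 1 control and 2 malathion libraries, with −0.053 for DNAJC14, −0.41 for DNAJC11 and 0 members called. The lone control library is assumed there to vary like the others.

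Same-numbered libraries were also set side by side. In replicates 1 the log2 ratio (CPM + 1, malathion over control) of the 35 members had a median of −0.093 and an SD of 0.56, in replicates 2 −0.36 and 1.17, and in replicates 3 0.051 and 2.08. For all tested genes the SD was 0.50, 1.23 and 1.62. In replicates 1, the pair most alike, 0 members were at least 2-fold higher in malathion, where 1.6% of all tested genes were, and 3 were at least 2-fold lower, where 4.35% of all tested genes were. These were DNAJB6, DNAJC1 and DNAJC19. In all 3 pairs malathion lay above control for 3 members, DNAJB4, DNAJC17 and DNAJC28, where 6.8% of all tested genes did. It lay below control in all 3 pairs for 7 members, or 20% (DNAJB6, DNAJB9, DNAJC3, DNAJC6, DNAJC7, DNAJC8 and DNAJC11), where 14.6% of all tested genes did. Some of these rest on very few counts in replicates 3. Malathion against control, these were 1 against 0 for DNAJC28 and 5 against 3 for DNAJC17. They were 0 against 1 for DNAJC3 and 0 against 3 for DNAJC11. The direction of these genes in that pair is not resolved. Over malathion replicates 1 and 2 and control replicate 1, 28 of the 35 members (80%) stayed within 2-fold, as did 85.7% of all tested genes. Over all 6 libraries 0 members did, where only 2.4% of all tested genes did.

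**Figure D4:**
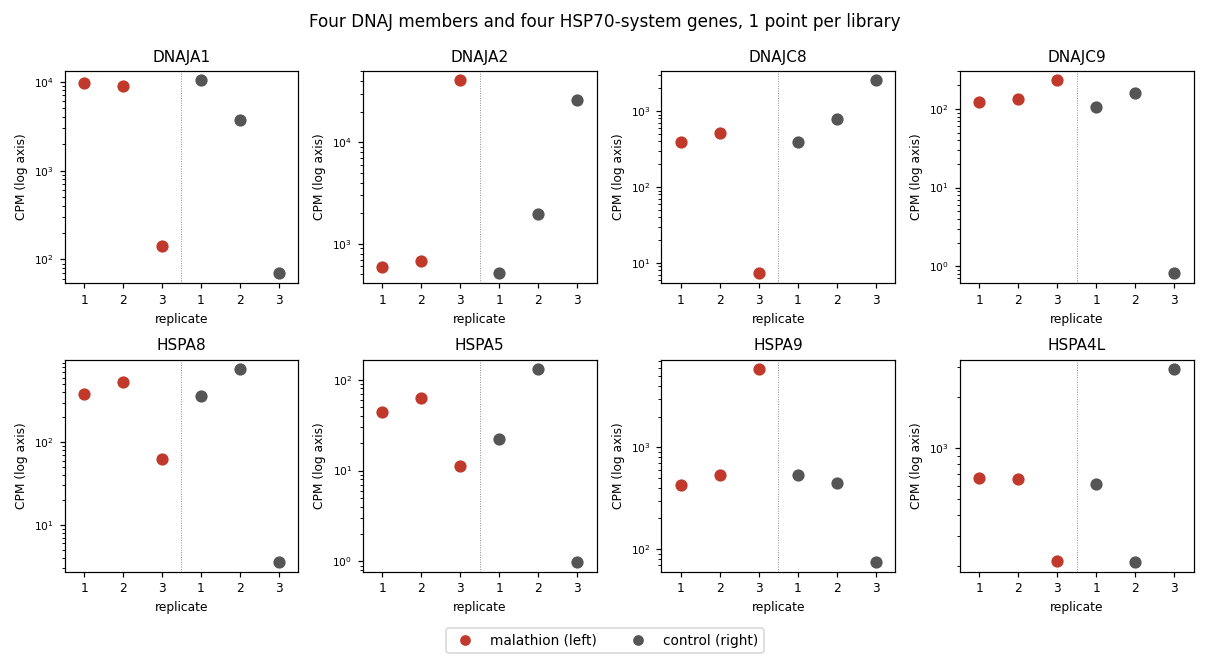
CPM on a log axis of DNAJA1, DNAJA2, DNAJC8 and DNAJC9 (top) and of the HSP70 genes HSPA8, HSPA5 and HSPA9 and the exchange factor gene HSPA4L (bottom), 1 point per library, with malathion in red on the left and control in grey on the right of each panel. DNAJA2 is highest in both replicate 3 libraries (40614 and 26254 CPM), DNAJC8 and HSPA4L in control replicate 3 (2539 and 2930 CPM), and DNAJC9 and HSPA9 in malathion replicate 3 (230.2 and 5846 CPM).

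J proteins work with an HSP70 and with a factor that exchanges its nucleotide. HSPA8, the cytosolic HSP70 that DNAJA1 and DNAJA2 serve, stood at 384, 528 and 61.7 CPM in malathion replicates 1, 2 and 3, against 358, 761 and 3.56 CPM in control replicates 1, 2 and 3. Like DNAJA1 and unlike DNAJA2, it was lowest in CPM in both replicate 3 libraries. HSPA5, the HSP70 of the endoplasmic reticulum, stood at 44.4, 63.3 and 11.3 CPM in the malathion replicates, against 22.3, 130.4 and 0.984 CPM in the control replicates. HSPA9, the mitochondrial HSP70, stood at 429.9, 537 and 5846 CPM in the malathion replicates, against 530.2, 449.8 and 74.7 CPM in the control replicates, with its highest value in malathion replicate 3. HSPA4L had the most reads of the exchange factors by median, with 663, 656 and 216 CPM in the malathion replicates, against 612, 212 and 2930 CPM in the control replicates.

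None of these partners was called either. Log2 fold changes were 1.07 ± 1.25 for HSPA8, 1.24 ± 1.03 for HSPA5, 5.60 ± 3.58 for HSPA9 and −3.33 ± 2.87 for HSPA4L. HSPA9 ranged from −0.56 to 6.35 and HSPA4L from −4.68 to 2.14 when 1 library was left out. Only 6 of the 10 HSP70 genes listed were found by symbol, and HSPA1A, HSPA1B, HSPA2 and HSPA6 were not among them. All 5 tested HSP70 genes lay above 0 (median 1.24, and 0.17 without both replicate 3 libraries, with 4 of 5 above). With library totals alone 3 of the 5 lay above 0. Of the 13 exchange factor genes, 4 lay above and 9 below 0 (median −0.29). Without both replicate 3 libraries 6 lay above and 7 below (median −0.052, and −0.062 for all tested genes). Both tested heat shock factor genes, HSF2 and HSF4, lay above 0, but with library totals alone 1 of the 2 did. HSF1, the factor that switches on heat shock genes, was at 0 in 5 libraries and at 0.0738 CPM in control replicate 2.

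Without the filter on low counts, all 38 members entered the test and 0 were called, where 0.356% of 16852 genes were.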

How the data were processed

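Polyadenylated RNA of 6 libraries was amplified with a modified Smart-seq2 method and built into libraries with a TruSeq DNA kit, per the labels' protocols; this chemistry uses no molecular identifiers and does not mark strand. The authors deposited raw read counts per Ensembl gene. STAR 2.5.3a, HTSeq 0.9.1 and DESeq2 1.20.0 are named in the submitters' processing notes; the build, annotation and strand setting are not given in the sources used here. HTSeq's 5 rows for reads given to no gene (36.7% to 42.6% of a file) were left out of library sizes. Reads with several alignments (2.45% to 8.37%) sit in those rows, so genes with near-identical copies, and overlapping or antisense genes, are uncertain.

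Symbols came from a name table (14857 of 25880 identifiers). Counts were tested with edgeR 4.0.16 (R 4.3.3; quasi-likelihood F test, TMM, filterByExpr with minimum count 10 and minimum total 15, two-sided, Benjamini-Hochberg over 10678 genes, threshold 0.05); SE derive from F. The edgeR procedure was tested on simulated data, with a pass mark only at a spread far below that of these libraries. Their common biological coefficient of variation was 1.10, so that check does not show what could be detected here. Alternatives were DESeq2 1.42.0, limma-voom 3.58.1, other scalings, no filter, the replicate block and left-out libraries. A planned order per coding length was not computed, since no lengths were at hand. No library was a duplicate (chi-square over degrees of freedom at least 56.9 for each pair).

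Same-numbered libraries deviated together from their group means across genes (r = 0.466, 0.467 and 0.573 for replicates 1, 2 and 3). The labels give the numbers no meaning. The main fit took no pairs, and the number served as a block only in an alternative fit. Libraries of unlike number gave 0.457 (malathion replicate 2 with control replicate 1) and 0.374 (malathion replicate 1 with control replicate 2), so these correlations set replicate 3 apart and hardly tell replicates 1 and 2 from each other. The members and lists were chosen with earlier results of these data known. Named genes were the 4 members with most reads per class, the 3 with the smallest p in each direction, the 5 with the highest ratio of 1 library to the median of the others (at least 100 CPM in 1 library), members chosen for their role, 3 HSP70 genes and the leading exchange factor. DNAJC1, DNAJC6, DNAJC11, DNAJC17, DNAJC24, DNAJC28 and genes given for the lists were added after their values were seen. The list of J proteins outside these symbols is not reported here.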

Additional observations from a re-analysis of the deposited data

How the results depend on the processing

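The count of DNAJ members called stayed at 0 in each of the 14 other fits. Over all genes, 60 were called without the filter on low counts and 0 to 3 when 1 library was left out (3 without malathion replicate 1 and 3 without malathion replicate 2). With the replicate number as a block 0 genes and 0 members were called, so pairing changed no call. The median of the family was −0.40 with library totals alone and −0.53 to 0.26 when 1 library was left out. Of the 21 named members tested, 7 kept the sign of their fold change in each fit. In 1 fit or another the sign turned for the rest; the cause was not tested. With limma-voom DNAJA2 stood at −0.20 and DNAJB1 at 0.069, and with the block at −0.046 and 0.28. With library totals DNAJC10 stood at −0.020. Without both replicate 3 libraries DNAJA2 stood at −0.56, DNAJC10 at −0.077 and DNAJC15 at 0.20. With 1 control against 2 malathion libraries DNAJA1 stood at −0.18, DNAJB1 at 0.16, DNAJB9 at 0.051, DNAJC7 at 0.089, DNAJC8 at 0.13, DNAJC10 at −0.19, DNAJC12 at −0.078, DNAJC15 at 0.92 and DNAJC19 at −0.49. Leaving out 1 library gave −7.89 to 8.01 for DNAJA2, −1.10 to 0.27 for DNAJA3, −0.82 to 0.71 for DNAJB1, −1.27 to 0.23 for DNAJB11, −0.31 to 2.24 for DNAJC10, −0.98 to 2.25 for DNAJC12, −1.92 to 0.46 for DNAJC14, −1.18 to 0.29 for DNAJC18, −1.04 to 2.25 for DNAJC19 and −1.06 to 0.28 for DNAJC7. In TMM-normalised CPM the family stood at 5257, 4334 and 297733 in malathion replicates 1, 2 and 3, against 5202, 2303 and 205667 in the control replicates. The means there, 102441 in malathion and 71057 in control libraries, rest mostly on the replicate 3 libraries. They lie far from the means of 21536 and 16526 in CPM. All of the 10 members with most reads stayed among the 10 by median without both replicate 3 libraries. At 25816040 counts or more per library, depth limits the least read members, and the spread between libraries limits these comparisons. Wilson intervals and the limits for 0 counts cover counting error only.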
